A study of Mus musculus with 12 samples.

Results

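Wnt ligands and Frizzled receptors were followed here through 10 genes, found in the deposited table of 45777 genes by their symbols: the ligands Wnt7a, Wnt7b and Wnt5a, the Frizzled receptors Fzd1, Fzd2, Fzd9 and Fzd10, the co-receptor Lrp6, the feedback gene Axin2 and the nuclear factor Lef1. All 10 were among the 19163 genes that passed the filter on low counts. Wnt7a and Fzd10 were chosen by their counts, which had been seen to differ between groups of this series, so their values are described without a test. The other 8 were tested. The libraries come from astrocytes purified from mouse cerebral cortex at postnatal day 14, in 4 groups of 3 libraries. Cre- animals carry floxed alleles of the glucocorticoid receptor gene Nr3c1 and no recombinase, and AGR cKO animals carry the same alleles with Aldh1l1-CreERT2, a tamoxifen-dependent Cre driven by an astrocyte promoter. In the ESD (early life stress) groups, pups spent 3 hours a day apart from the dam from day 1 to day 14. The labels give no separation for the control groups. Animals of all 4 groups, controls included, received 4-hydroxytamoxifen from day 5 to day 7, so separation began before the injections. The labels do not say whether a library holds 1 animal or several, so the p-values below measure the spread between these libraries.

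Wnt proteins are secreted lipid-modified ligands. In the canonical branch a ligand binds a Frizzled receptor together with Lrp5 or Lrp6, the complex that degrades β-catenin is held in check, and β-catenin joins factors of the TCF/LEF family at target genes. Axin2 is a widely used target gene whose product feeds back on the pathway as a scaffold of the degradation complex. In the brain Wnt7a and Wnt7b are known for acting on endothelial cells through Gpr124, Reck and Frizzled receptors during the growth of vessels and the formation of the blood-brain barrier. Wnt5a is known mainly for signalling that does not run through β-catenin.

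Total counts ran from 42603546 to 52130081 per library. Levels are given as CPM (counts scaled to the TMM-adjusted library size), or as the deposited TPM (transcript levels scaled by length and library) where genes are compared with each other. Nr3c1, the targeted gene, stood at 199 to 237 CPM in the 6 Cre- libraries and at 66.5 to 108 CPM in the 6 AGR cKO libraries. The 12 astrocyte markers summed to 23500 to 29020 TPM in every library. RNA of other cells was present beside them. The 12 endothelial markers summed to 781 to 2382 TPM in Cre- and 358 to 997 TPM in AGR cKO libraries, and 12 of 12 were lower in AGR cKO, with a median log2 difference of -0.97 in control and -1.02 under ESD. Microglial and macrophage markers (10 of 10 lower in both) had medians of -1.12 and -1.09. Mural cell and fibroblast markers summed to 945 to 3208 TPM. Neuronal markers summed to 37.8 to 68.8 TPM, with Rbfox3 at no more than 1.35 TPM, and 10 of 10 were higher in AGR cKO in control (median 0.52) and lower under ESD (median -0.49). Oligodendrocyte precursor markers summed to 237 to 351 TPM and oligodendrocyte markers to 276 to 417 TPM. Ependymal and choroid plexus markers summed to 89.6 to 199 TPM in Cre- and 60.1 to 126 TPM in AGR cKO libraries, and over both conditions 6 of 7 were lower in AGR cKO (median -0.91, 3 called). Of the 12 astrocyte markers 8 were lower over both conditions (median -0.09, 3 called). Of the 12 endothelial markers 1 was called over both conditions and 1 under ESD. Over all genes, 3.49% were called over both conditions and 1.04% under ESD. Neurod6, Mog and Ttr were at 0 in at least 1 library. The part of these markers in the results below was not tested. Cre- control 1 had the highest endothelial sum, and also the highest microglial and macrophage sum and the highest mural cell and fibroblast sum. Cre- ESD 3 stood apart in Fkbp5, a gene induced by glucocorticoids, with 103 CPM against 3.35 to 11.1 CPM in the other 11 libraries, so values that rest on it are given with and without it.

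Astrocyte preparations held few Wnt ligands and nearly the whole Frizzled family. Of 19 Wnt ligand genes in the table, 8 had a mean above 1 TPM and 3 above 10 TPM. Wnt7b led with a mean of 79.4 TPM (range 69.1 to 93.4) and took 45.8% of the summed ligand TPM. Wnt7a followed with 69.8 TPM (range 29.0 to 87.1, 39.1%). Wnt5a came next with 11.2 TPM (range 7.12 to 16.6, 6.4%), and its range did not meet that of Wnt7a. Wnt5b and Wnt4 had means of 4.13 and 4.12 TPM. All 10 Frizzled genes had a mean above 1 TPM, and 9 above 10 TPM. Fzd2 had 85.9 TPM, Fzd1 67.6 TPM and Fzd10 49.1 TPM, followed by Fzd6 with 48.9 TPM, Fzd3 with 38.9 TPM and Fzd9 with 34.7 TPM, each overlapping its neighbour in range. Lrp6 averaged 48.3 TPM, Axin2 72.6 TPM and Lef1 15.7 TPM. Summed over the family, ligand TPM was 179 ± 16.8 (SD, n = 3) in Cre- control, 144 ± 18.0 in Cre- ESD, 187 ± 3.79 in AGR cKO control and 192 ± 19.8 in AGR cKO ESD. The Cre- ESD sums were the lowest, and these sums contain Wnt7a.

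**Figure D1:**
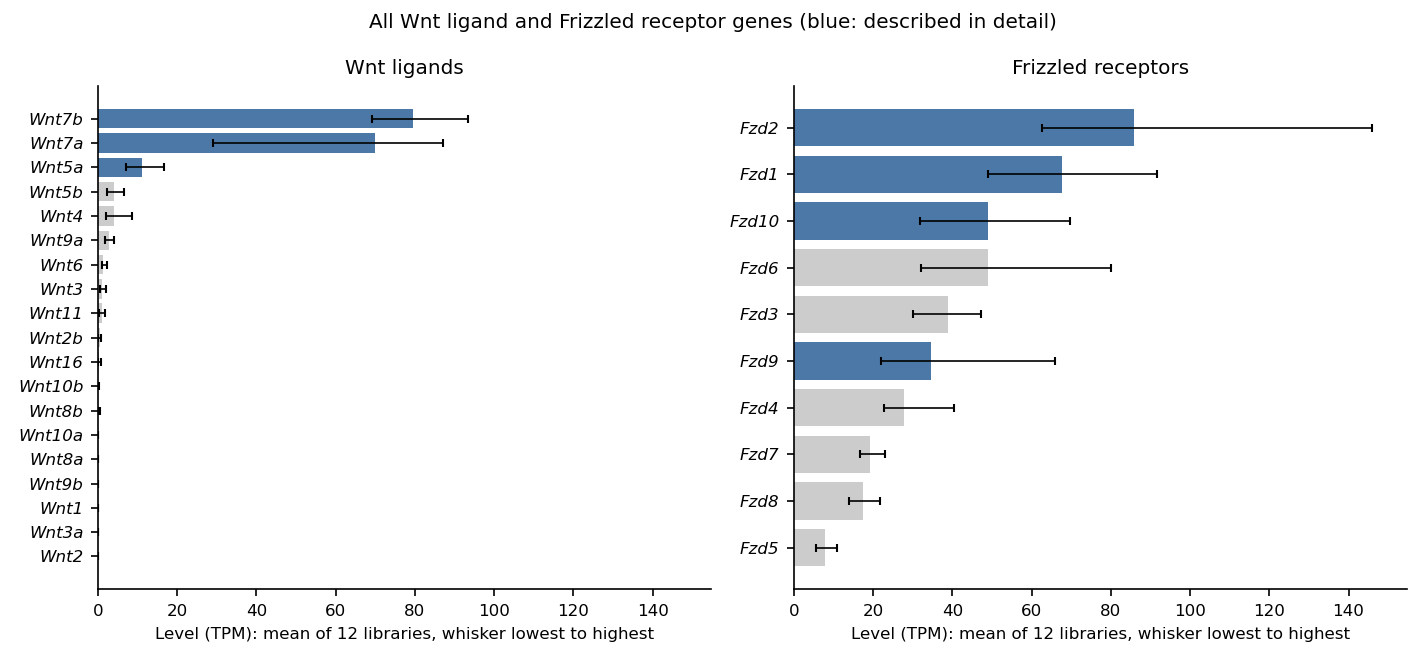
Mean level in TPM over the 12 libraries (bars) with the lowest and highest library (whiskers) of the 19 Wnt ligand genes and the 10 Frizzled genes; blue bars are the genes described one by one. Wnt7b and Wnt7a stand far above the other ligands, while 9 of the 10 Frizzled genes average more than 10 TPM.

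Wnt7a (gene ID 22421, mm10 chromosome 6, 91363981 to 91411353, minus strand) encodes a secreted ligand that signals to endothelial and oligodendrocyte lineage cells. In unstressed Cre- animals its level was 80.9, 69.9 and 68.6 CPM, and in stressed Cre- animals 49.8, 61.4 and 31.9 CPM. In AGR cKO animals it was 87.1, 88.8 and 93.1 CPM in control and 98.5, 89.3 and 88.6 CPM under ESD. Every AGR cKO library therefore lay above every Cre- library, in a comparison where 2.77% of all genes were without overlap. Every Cre- ESD library lay below every Cre- control library, as for 6.39% of all genes, and the AGR cKO groups overlapped. The mean order was AGR cKO ESD (92.1 ± 5.52 CPM, SD, n = 3), AGR cKO control (89.7 ± 3.10 CPM), Cre- control (73.1 ± 6.77 CPM) and Cre- ESD (47.7 ± 14.9 CPM). The log2 difference was -0.62 ± 0.18 (SE) for ESD in Cre- and 0.04 ± 0.18 for ESD in AGR cKO, and the second minus the first was 0.65 ± 0.25. Between genotypes it was 0.29 ± 0.18 in control and 0.95 ± 0.18, a 1.93-fold higher level, under ESD. Those differences share the Cre- ESD libraries. Without Cre- ESD 3, the lowest library, ESD in Cre- gave -0.39, genotype under ESD 0.73 and the difference between the ESD effects 0.43. A lncRNA gene, Gm30437, shares 26 bases with the start of Wnt7a and had 18 to 93 counts per library. The longer of the 2 annotated Wnt7a transcripts took 61.5% to 89.8% of the gene's transcript counts.

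The upstream sequences of Wnt7a and Axin2 are shown because these were the members higher in every AGR cKO than in every Cre- library. They come from RefSeq on GRCm38.p6 (mm10), whose table holds an entry for 6 of the 10 genes, and run 5′ to 3′ on the gene's strand. Each ends at the start of 1 annotated transcript, except that bases inside an annotated UTR were left out at the end of the Wnt7a window. The Axin2 window lies inside the annotated span of the gene, before a transcript start downstream of its first annotated base. Capitals mark GC boxes (GGGCGG, or CCGCCC on the other strand), 6 in Wnt7a and 2 in Axin2.
Wnt7a, chr6:91411364-91411603, minus strand: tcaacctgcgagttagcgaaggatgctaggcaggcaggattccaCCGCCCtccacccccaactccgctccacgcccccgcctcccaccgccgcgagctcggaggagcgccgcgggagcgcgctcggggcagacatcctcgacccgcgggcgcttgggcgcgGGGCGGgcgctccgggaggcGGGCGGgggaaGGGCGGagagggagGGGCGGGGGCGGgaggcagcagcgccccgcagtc
Axin2, chr11:108920099-108920348, plus strand: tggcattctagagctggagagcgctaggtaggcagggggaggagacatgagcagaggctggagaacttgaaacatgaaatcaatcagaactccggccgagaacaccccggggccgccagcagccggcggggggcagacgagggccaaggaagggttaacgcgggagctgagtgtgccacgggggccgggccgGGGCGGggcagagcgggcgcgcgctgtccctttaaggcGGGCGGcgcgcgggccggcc
A GC box stood in 32.7% of 32851 RefSeq windows of 250 bases before a start. The full 250-base window of Wnt7a was 77.6% and that of Axin2 69.2% G or C, against a median of 52.4% over all promoters. These traits were not particular to the 2 genes. The full windows of Fzd9 and Fzd10 held 1 GC box each and were both 76.4% G or C. Windows of Lef1 held 0 or 1 GC box, and that of Fzd1 held 0. Neither the TCF/LEF word CTTTGAT, present in 3.21% of windows on either strand, nor the glucocorticoid response element (GNACA and TGTNC parted by any 3 bases), present in 0.387%, occurred in the full 250-base windows of the 6 genes, parts inside a UTR included.

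Wnt7b (gene ID 22422, chromosome 15, 85535437 to 85581821, minus strand), the closest relative of Wnt7a and the most abundant ligand here, showed no such spread. It stood at 88.6, 105 and 97.7 CPM in Cre- control and at 98.2, 95.8 and 85.3 CPM in Cre- ESD. In AGR cKO it was 84.8, 94.2 and 97.2 CPM in control and 112, 110.4 and 88.6 CPM under ESD. All 4 groups overlapped. Over both conditions the genotype difference was 0.04 ± 0.07 on the log2 scale, with a 95% interval of -0.12 to 0.20 and an adjusted p of 0.836, and under ESD it was 0.16 ± 0.10 (interval -0.07 to 0.39). The intervals leave room for differences of up to that size. The lncRNA gene AU022754 shares 680 bases with Wnt7b and had 64 to 152 counts per library, and nothing says if reads were counted by strand.

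Wnt5a (gene ID 22418, chromosome 14, 28504543 to 28527448, plus strand), a ligand of the β-catenin-independent branch, was low and uneven. It stood at 31.9, 19.5 and 18.4 CPM in Cre- control and at 24.0, 22.2 and 18.0 CPM in Cre- ESD. In AGR cKO it was 22.8, 24.5 and 23.7 CPM in control and 24.1, 27.1 and 14.2 CPM under ESD. The highest library was Cre- control 1, the one with the highest sums of endothelial, of microglial and macrophage, and of mural cell and fibroblast markers. Over the 12 libraries Wnt5a had correlations of 0.34, 0.08 and 0.21 with the mean log2 CPM of these classes. With oligodendrocyte precursor markers it was 0.64 and with astrocyte markers -0.56. The part of any of these markers in the Wnt5a levels was not tested. The genotype difference over both conditions was 0.03 ± 0.17 (95% interval -0.35 to 0.40, adjusted p = 0.957), and the ESD difference was -0.12 ± 0.24 in each genotype.

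**Figure D2:**
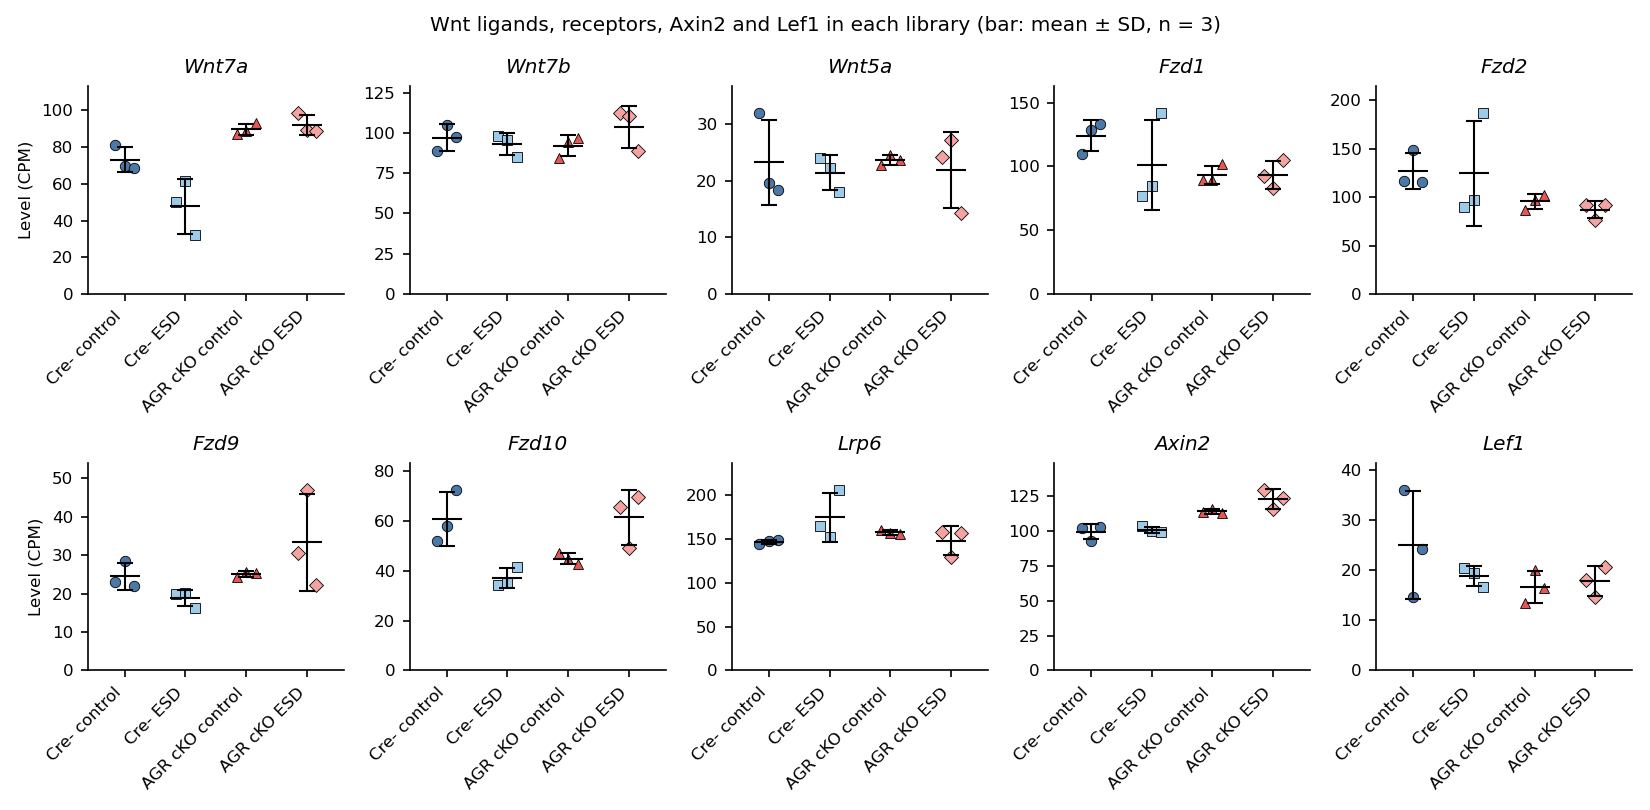
Level in CPM of the 10 genes in each of the 12 libraries (points, by group), with the mean and SD of each group of 3; every vertical axis starts at 0. Wnt7a and Axin2 are higher in all 6 AGR cKO than in all 6 Cre- libraries, and Fzd10 is lowest in Cre- ESD.

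Fzd10 (gene ID 93897, chromosome 5, 128601106 to 128604093, plus strand) encodes a Frizzled receptor of the same branch of the family as Fzd9 and Fzd4. It stood at 51.7, 57.9 and 72.5 CPM in Cre- control and 34.1, 35.5 and 41.6 CPM in Cre- ESD. In AGR cKO it was 47.3, 44.7 and 42.6 CPM in control and 65.4, 49.0 and 69.6 CPM under ESD. The order of the groups was not that of Wnt7a. AGR cKO ESD (61.4 ± 10.9 CPM, SD, n = 3) and Cre- control (60.7 ± 10.7 CPM) overlapped, AGR cKO control (44.9 ± 2.35 CPM) lay below both, and Cre- ESD (37.1 ± 4.01 CPM) lay lower still without overlap. ESD went with a log2 difference of -0.71 ± 0.15 in Cre- and 0.45 ± 0.15 in AGR cKO, and the second minus the first was 1.16 ± 0.21. AGR cKO was lower than Cre- in control (-0.44 ± 0.15) and higher under ESD (0.73 ± 0.15), so that the difference over both conditions was 0.15 ± 0.10. Each of these 4 pairs of groups was without overlap, in a gene chosen for a difference. Over all genes tested, 11.1% were without overlap for ESD in Cre- and 16.6% for ESD in AGR cKO. For genotype it was 16.9% in control and 19.9% under ESD. Without Cre- ESD 3 the Fzd10 values were -0.80 for ESD in Cre- and 0.82 for genotype under ESD. Without Cre- control 3, the highest library, genotype in control gave -0.29.

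Fzd9 (gene ID 14371, chromosome 5, 135248938 to 135251047, minus strand), another Frizzled receptor, stood at 23.1, 28.6 and 22.0 CPM in Cre- control and 19.8, 20.1 and 16.4 CPM in Cre- ESD. In AGR cKO it was 24.2, 25.5 and 25.3 CPM in control and 30.7, 47.0 and 22.1 CPM under ESD. Every AGR cKO ESD library lay above every Cre- ESD library, and the control groups overlapped. The genotype difference under ESD was 0.83 ± 0.22, a 1.78-fold higher mean, with an adjusted p of 0.103 in edgeR's quasi-likelihood test over 19163 genes (Benjamini-Hochberg), and it was called by DESeq2 (adjusted p = 0.0102). Over both conditions it was 0.43 ± 0.15 (adjusted p = 0.143). ESD gave -0.39 ± 0.22 in Cre- and 0.41 ± 0.21 in AGR cKO, and the test of the difference between them (0.80 ± 0.30) had an adjusted p of 0.999. AGR cKO ESD 2 was the highest library with 47.0 CPM. Without it genotype gave 0.49 under ESD (adjusted p = 0.213) and 0.26 over both conditions (adjusted p = 0.206), ESD in AGR cKO gave 0.08, and the difference between the ESD effects was 0.47. Without AGR cKO ESD 3, the lowest of that group, genotype was called both under ESD (1.05, adjusted p = 0.0481) and over both conditions (0.55, adjusted p = 0.0352), and ESD in AGR cKO gave 0.63.

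Fzd1 (gene ID 14362, chromosome 5, 4753839 to 4758216, minus strand) and Fzd2 (gene ID 57265, chromosome 11, 102604431 to 102608058, plus strand) are the most abundant Frizzled receptors of these libraries. Fzd1 stood at 110.1, 129 and 133 CPM in Cre- control, 76.7, 85.0 and 142 CPM in Cre- ESD, 89.0, 89.0 and 102 CPM in AGR cKO control and 92.2, 82.8 and 105 CPM in AGR cKO ESD. Fzd2 stood at 116, 148 and 116 CPM in Cre- control, 89.6, 97.1 and 187 CPM in Cre- ESD, 87.1, 97.3 and 102 CPM in AGR cKO control and 91.6, 76.8 and 92.3 CPM in AGR cKO ESD. For both genes the highest of the 12 libraries was Cre- ESD 3, and the AGR cKO control libraries lay below all Cre- control libraries. The difference in control was -0.41 ± 0.19 for Fzd1 (adjusted p = 0.502) and -0.41 ± 0.23 for Fzd2 (adjusted p = 0.593). Under ESD it was -0.12 ± 0.19 for Fzd1 and -0.52 ± 0.23 for Fzd2 (adjusted p = 0.822 and 0.306), and without Cre- ESD 3 it was 0.21 and -0.10. Fzd2 over both conditions gave -0.46 ± 0.16 (adjusted p = 0.139), with a call by DESeq2 (adjusted p = 0.0483), and -0.26 without Cre- ESD 3. ESD in Cre- gave -0.29 ± 0.19 for Fzd1 and -0.03 ± 0.23 for Fzd2, and -0.62 and -0.44 without that library (adjusted p = 0.200 and 0.290). For Fzd1 it was -0.12 without Cre- ESD 1 and -0.18 without Cre- ESD 2.

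Lrp6 (gene ID 16974, chromosome 6, 134446476 to 134566913, minus strand) encodes the co-receptor that is phosphorylated when a canonical ligand binds. Its levels were close together, with 144, 147 and 149 CPM in Cre- control and 165, 152 and 206 CPM in Cre- ESD, and with 160.4, 157 and 155 CPM in AGR cKO control and 158, 129 and 157 CPM in AGR cKO ESD. All Cre- ESD libraries and all AGR cKO control libraries lay above all Cre- control libraries. The ESD difference in Cre- was 0.25 ± 0.11 (adjusted p = 0.691), and 0.11 without Cre- ESD 3, the highest library. The genotype difference was 0.10 ± 0.11 in control (adjusted p = 0.810) and -0.24 ± 0.11 under ESD (adjusted p = 0.324), and under ESD -0.10 without Cre- ESD 3 and -0.15 without AGR cKO ESD 2.

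Axin2 (gene ID 12006, chromosome 11, 108917828 to 108950783, plus strand) was the member that passed the test. It was higher in AGR cKO over both conditions. The libraries stood at 103, 93.2 and 103 CPM in Cre- control, at 103, 100.2 and 99.1 CPM in Cre- ESD, 114, 116 and 113 CPM in AGR cKO control and 130, 116 and 123 CPM in AGR cKO ESD. All 6 AGR cKO libraries lay above all 6 Cre- libraries. The log2 difference was 0.24 ± 0.05, a 1.18-fold higher level, with an adjusted p of 0.0197 (edgeR quasi-likelihood, Benjamini-Hochberg). By condition it was 0.20 ± 0.06 in control (adjusted p = 0.322) and 0.28 ± 0.06 under ESD (adjusted p = 0.0653), with no overlap in either. The difference between these (0.09 ± 0.09) had an adjusted p of 0.999. ESD gave 0.02 ± 0.06 in Cre- and 0.11 ± 0.06 in AGR cKO (adjusted p = 0.965 and 0.762). The call over both conditions was lost without AGR cKO control 2 (adjusted p = 0.0696) or without AGR cKO ESD 1 (adjusted p = 0.0502), and stood without Cre- ESD 3 (0.24, adjusted p = 0.0374). In the same comparison endothelial (12 of 12), microglial (10 of 10) and mural cell and fibroblast markers (9 of 9) had negative differences. So had ependymal and choroid plexus (6 of 7) and astrocyte markers (8 of 12). The medians were, in this order, -1.02, -1.13, -0.27, -0.91 and -0.09. Neuronal, oligodendrocyte precursor and oligodendrocyte markers had medians of 0.01, 0.04 and 0.07. The part of all these markers in the Axin2 result was not tested.

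Lef1 (gene ID 16842, chromosome 3, 131110297 to 131224357, plus strand) encodes a TCF/LEF factor that endothelial cells of the brain also express. It stood at 36.1, 14.7 and 24.3 CPM in Cre- control and 20.4, 19.5 and 16.6 CPM in Cre- ESD. The AGR cKO libraries had 13.5, 20.0 and 16.6 CPM in control and 18.0, 14.7 and 20.7 CPM under ESD. The groups overlapped, and the highest library was Cre- control 1. That library also had the most endothelial marker RNA (2382 TPM, against 781 and 1091 TPM in the other Cre- control libraries). Its microglial and macrophage sum (1136 TPM) and its mural cell and fibroblast sum (3208 TPM) were the highest too. The genotype difference was -0.59 ± 0.27 in control (adjusted p = 0.483), -0.22 without Cre- control 1 (adjusted p = 0.860), and -0.08 ± 0.26 under ESD (adjusted p = 0.921). In such bulk samples fewer cells of a type and less RNA per cell cannot be told apart.

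**Figure D3:**
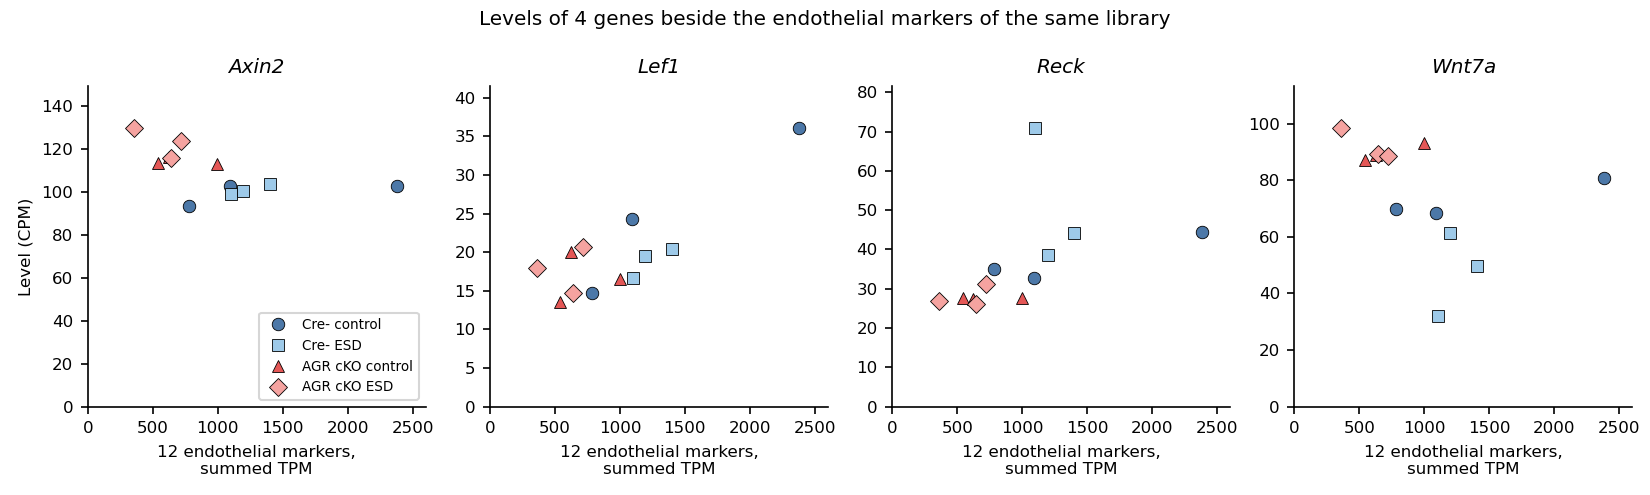
Level in CPM of Axin2, Lef1, Reck and Wnt7a (vertical axes, from 0) against the summed TPM of 12 endothelial markers in the same library (horizontal axis); each point is 1 of the 12 libraries. The AGR cKO libraries lie at 358 to 997 TPM, with Axin2 above and Reck below every Cre- library, and Lef1 is highest in Cre- control 1 at 2382 TPM.

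Across the 8 tested members, counts stood as follows. For genotype over both conditions 1 of 8 was called (Axin2), where 3.49% of all genes tested were called, 1 of 8 was without overlap, against 2.77%, and 3 of 8 (Axin2, Fzd2 and Fzd9) had an unadjusted p under 0.05, against 20%. For genotype in control edgeR and DESeq2 called 0 of 8 (0.0157% of all genes in edgeR), 2 had an unadjusted p under 0.05 (10.2%) and 4 were without overlap (16.9%). Of these, 2 were higher (Axin2 and Lrp6, against 8.54% of all genes) and 2 lower (Fzd1 and Fzd2, against 8.39%). For genotype under ESD edgeR called 0 of 8 (1.04% of all genes), and 3 had an unadjusted p under 0.05 (15.6%). DESeq2 called 2 (Axin2 and Fzd9), where it called 783 of all genes against 200 in edgeR. These same 2 were without overlap (19.9%). For ESD in Cre- edgeR and DESeq2 called 0 of 8 (0% of all genes in edgeR), 1 had an unadjusted p under 0.05 (7.19%) and 2 were without overlap (11.1%). Lrp6 lay higher there (4.68% of all genes) and Fzd9 lower (6.39%). For ESD in AGR cKO edgeR and DESeq2 called 0 of 8 (0% of all genes in edgeR), and 0 of 8 had an unadjusted p under 0.05 (7.58%) or lay without overlap (16.6%). For the difference between the ESD effects edgeR and DESeq2 called 0 of 8 (0% of all genes in edgeR), and 2, Fzd9 and Lrp6, had an unadjusted p under 0.05 (4.49%). For ESD over both genotypes edgeR and DESeq2 called 0 of 8 (0% of all genes in edgeR), and 0 of 8 had an unadjusted p under 0.05 (10.4%). In these comparisons with 0 calls limma-trend on TPM called 0 of 8 too. The median log2 difference of the 8 was -0.03 for genotype under ESD and -0.09 for ESD in Cre-, against 0 and -0.02 over all genes.

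**Figure D4:**
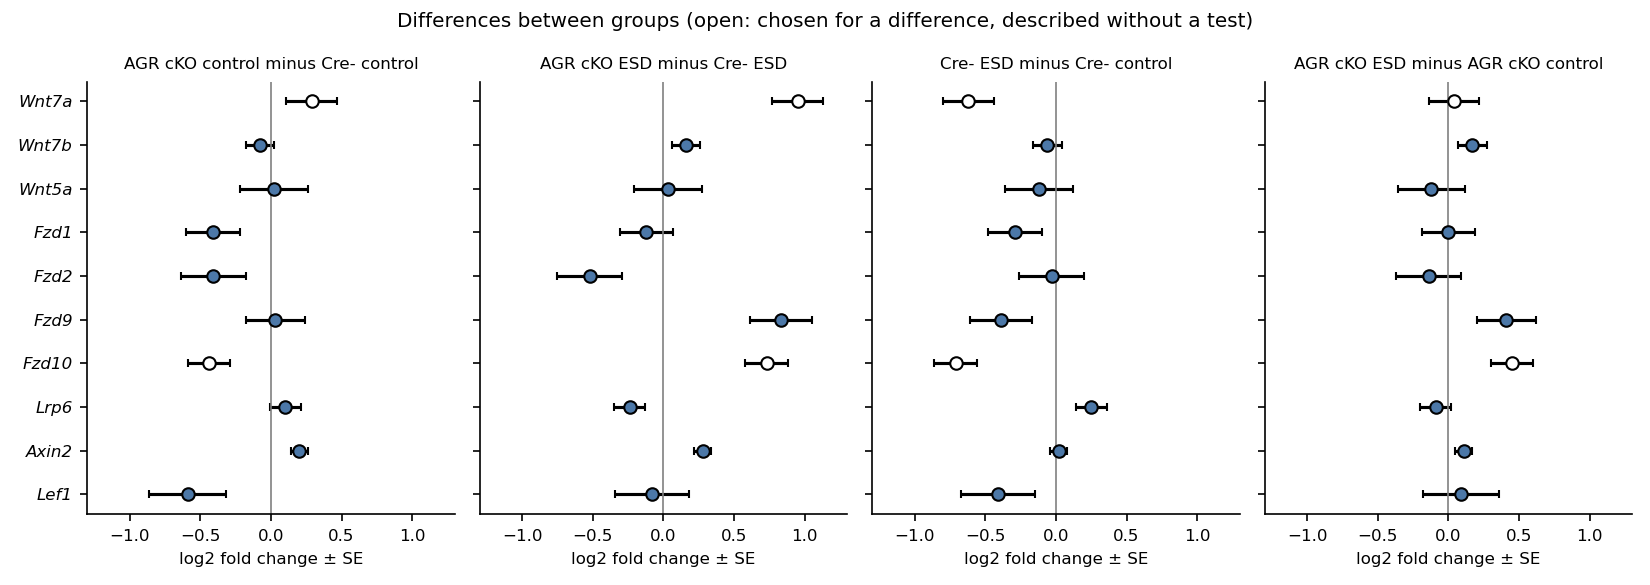
Log2 fold change with its standard error (horizontal axes) of the 10 genes in the 4 comparisons between groups of 3 libraries; open points are Wnt7a and Fzd10, described without a test. Wnt7a, Fzd9 and Fzd10 are at 0.73 to 0.95 between genotypes under ESD, and at -0.71 to -0.39 for ESD in Cre-. Of these only Fzd9 was tested, and edgeR did not call it in these comparisons (adjusted p = 0.103 and 0.718).

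The wider pathway was read from a list of 102 other genes, 86 of them tested. For genotype over both conditions 1 of 86 was called, Reck, where 3.49% of all genes were called, and 26 had an unadjusted p under 0.05 (20% of all genes). Reck encodes a membrane protein that lets endothelial cells recognise Wnt7 ligands, and fibroblasts and mural cells express it too. It stood at 32.8 to 71.0 CPM in the 6 Cre- and at 26.2 to 31.2 CPM in the 6 AGR cKO libraries, without overlap (2.77% of all genes). Its log2 difference was -0.65 ± 0.14 (adjusted p = 0.0283). For genotype under ESD it was -0.87 ± 0.19 (adjusted p = 0.0610). The highest library was Cre- ESD 3 with 71.0 CPM, and without it the values were -0.50 (adjusted p = 0.0175) and -0.56 (adjusted p = 0.110). The call was lost without Cre- control 1 (adjusted p = 0.0503), without AGR cKO control 1, 2 or 3 (adjusted p = 0.0728, 0.0821 and 0.0638) and without AGR cKO ESD 1 or 2 (adjusted p = 0.0766 and 0.0581). Endothelial markers (12 of 12) and mural cell and fibroblast markers (9 of 9, median -0.27) were lower in AGR cKO over both conditions too. By condition, the mural cell and fibroblast markers had a median of 0.06 in control (4 of 9 lower) and -0.49 under ESD (9 of 9 lower). Reck was at -0.44 ± 0.19 in control (adjusted p = 0.465). The part of these markers in the Reck result was not tested.

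For genotype under ESD 1 of 86 was called, Tle4, a Groucho-type co-repressor that binds TCF/LEF factors, where 1.04% of all genes were called, and 16 had an unadjusted p under 0.05 (15.6% of all genes). Tle4 stood at 80.8 to 84.8 CPM in Cre- ESD and 98.5 to 125 CPM in AGR cKO ESD, a log2 difference of 0.49 ± 0.10 (adjusted p = 0.0459). That call lay close to the threshold and held in only 2 of the 12 fits that left out 1 library, those without Cre- control 1 and without AGR cKO ESD 2, and adjusted p ranged up to 0.162 in the others. In control its difference was 0.03 ± 0.10 (adjusted p = 0.962). Of the 13 nuclear partners 11 lay above 0 under ESD, with a median of 0.17 against 0 over all genes. Among them Tcf7l1, a TCF factor, was at 0.30 ± 0.10 (adjusted p = 0.206).

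Lgr4 and Lgr6 are receptors of R-spondins, secreted proteins that raise the amount of Frizzled at the cell surface. Lgr4 stood at 144 to 167 CPM in Cre- control, 101 to 117 CPM in Cre- ESD, 144 to 148 CPM in AGR cKO control and 121 to 179 CPM in AGR cKO ESD. Its ESD difference in Cre- was -0.50 ± 0.12 (adjusted p = 0.627), and its genotype difference under ESD 0.50 ± 0.12 (adjusted p = 0.0836). Lgr6 stood at 93.8 to 107 CPM in Cre- control, 56.6 to 82.3 CPM in Cre- ESD, 56.3 to 65.7 CPM in AGR cKO control and 68.4 to 119 CPM in AGR cKO ESD. Lgr6 was thus below the Cre- control range in all libraries of Cre- ESD and AGR cKO control. Of all genes, 6.39% lay lower without overlap for ESD in Cre- and 8.39% for genotype in control. Its log2 differences were -0.47 ± 0.18 for ESD in Cre-, 0.54 ± 0.18 for ESD in AGR cKO and -0.68 ± 0.18 for genotype in control (adjusted p = 0.670, 0.647 and 0.261), and the test of the difference between the ESD effects (1.01 ± 0.26) had an adjusted p of 0.999. Neither gene passed edgeR's test in these comparisons.

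The remaining classes held no call in edgeR. Fzd7, a further Frizzled receptor, had an ESD difference of 0.23 ± 0.07 in Cre- and 0.22 ± 0.07 in AGR cKO (adjusted p = 0.627 and 0.647), and Fzd4, the receptor of the vascular ligand norrin, was at -0.22 ± 0.13 and -0.29 ± 0.13 (adjusted p = 0.734 and 0.669). Tspan12, a partner of Fzd4, was at 0.22 ± 0.07 for ESD in Cre- (adjusted p = 0.627). Wls, which carries Wnt proteins to the cell surface, was at -0.69 ± 0.21 for ESD in AGR cKO (adjusted p = 0.647), and Porcn, which attaches their lipid, at 0.10 ± 0.09 (adjusted p = 0.851). Among ligands, Wnt11 stood at 0.731 to 1.81 CPM in Cre- and 0.219 to 0.739 CPM in AGR cKO libraries, on 11 to 83 counts per library. Its genotype difference over both conditions was -1.10 ± 0.28 (adjusted p = 0.0526). Wnt9a was at -0.54 ± 0.22 for ESD in AGR cKO (adjusted p = 0.647). Of the extracellular inhibitors, Frzb was at -1.43 ± 0.42 for genotype in control (adjusted p = 0.275), where Cre- control 3 alone reached 8.11 CPM and the other 11 libraries 1.10 to 2.58 CPM. Sfrp5 was at -1.61 ± 0.54 for genotype under ESD (adjusted p = 0.190). Both are low here, and Sfrp5 stayed under 5 CPM in every library.

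Among target and feedback genes, Tnfrsf19 stood at 528 to 778 CPM in Cre- ESD and 810 to 1121 CPM in AGR cKO ESD, a difference of 0.49 ± 0.15 (adjusted p = 0.163), and Sp5 at 2.24 to 5.31 and 5.55 to 7.97 CPM, a difference of 0.79 ± 0.29 (adjusted p = 0.224). Both are known as targets of canonical signalling, and both were without overlap under ESD, as 19.9% of all genes were. They were the 2 with the smallest p of a class of 7, of which 4 lay above 0 and 3 below, with Apcdd1 at -0.37 ± 0.28, Nkd2 at -0.53 ± 0.31 and Myc at -0.02 ± 0.13 (these 3 named after their values were seen). Of 16 cytoplasmic transducers, the degradation complex among them, 11 lay above 0 for genotype under ESD (median 0.10), 6 were without overlap (19.9% of all genes) and 2 had an unadjusted p under 0.05 (15.6% of all genes). Those 2, named after their values were seen, were the receptor-proximal scaffolds Dvl1 at 0.21 ± 0.07 and Dvl2 at 0.27 ± 0.10 (adjusted p = 0.192 and 0.244). Btrc, the ubiquitin ligase subunit that recognises β-catenin, was at 0.19 ± 0.07, and Tnks, which targets axin proteins for degradation, at 0.25 ± 0.08 for ESD in Cre- (adjusted p = 0.670 and 0.627). In the planar polarity arm, Prickle1 was at -0.88 ± 0.31 and Celsr1 at 0.38 ± 0.15 for genotype under ESD (adjusted p = 0.205 and 0.260). For the other comparisons edgeR called 0 of the 86, with 8 at an unadjusted p under 0.05 for genotype in control (10.2% of all genes), 11 for ESD in Cre- (7.19%), 11 for ESD in AGR cKO (7.58%) and 6 for the difference between the ESD effects (4.49%). DESeq2 called 1 of the 86 for genotype in control (Lgr6) and 0 for the others of these, and limma-trend on TPM called 0 in each. Over the alternatives other than leaving out a library, 2 to 265 of all genes were called for genotype in control. The median log2 difference of the 86 was 0.07 for genotype under ESD and 0.01 in control, against 0 and -0.01 over all genes.

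**Figure D5:**
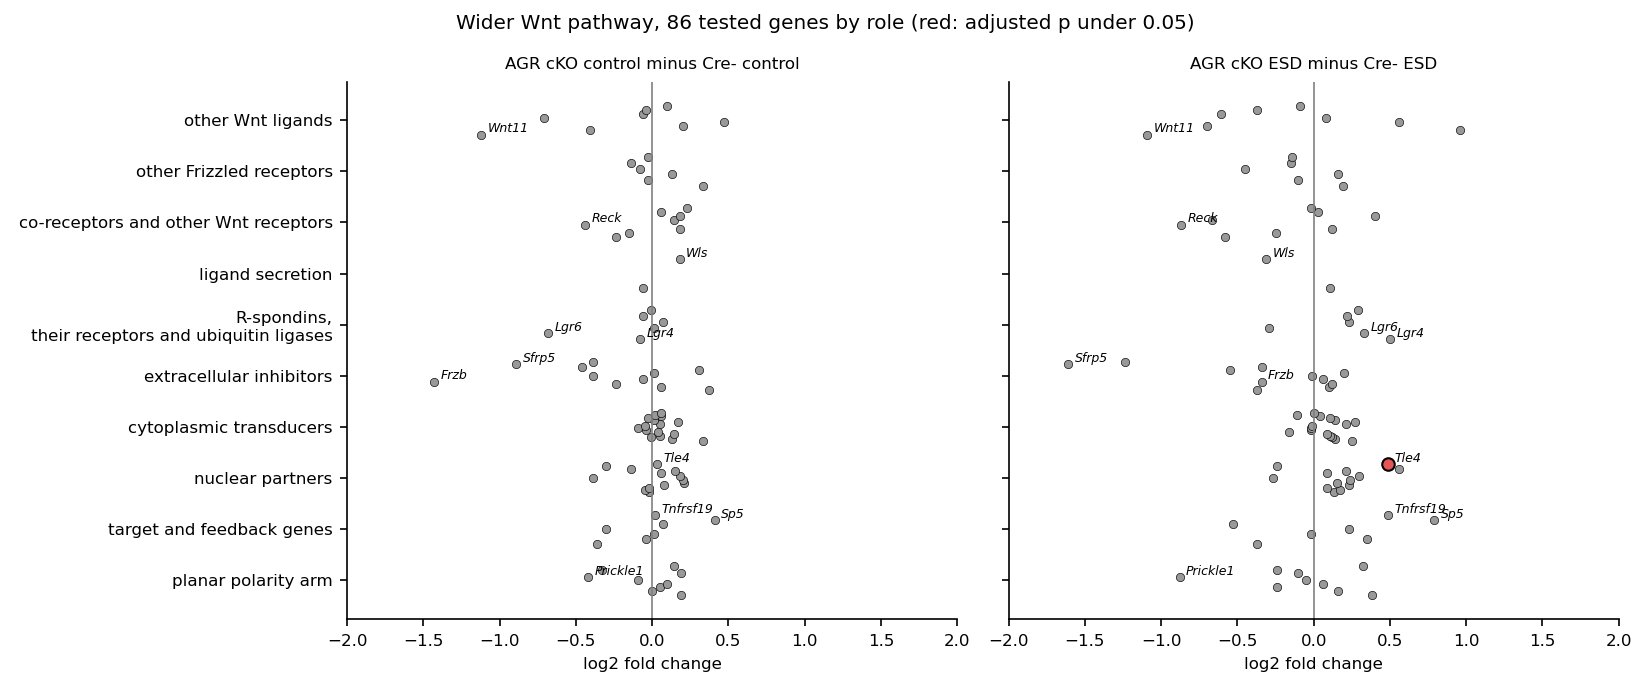
Log2 fold change (horizontal axes) of the 86 tested genes of the wider Wnt pathway, by role, for AGR cKO against Cre- in control and under ESD; each point is 1 gene and red marks an adjusted p under 0.05. Tle4 under ESD (0.49) is the single red point, and Reck is at -0.44 in control and -0.87 under ESD.

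The genes most like Wnt7a over the 12 libraries, by Pearson correlation of log2 CPM among 19162 other tested genes, were Epha4 (an ephrin receptor, r = 0.973), Fam184b (0.950), Inhbb (an activin subunit, 0.949), Tbc1d24 (0.932) and Dhcr7 (a cholesterol synthesis enzyme, 0.932). Among the members Fzd9 ranked 858th (r = 0.669) and Axin2 924th (r = 0.659). For Fzd10 they were Mapkapk3 (a stress-activated kinase, 0.910), Abcb9 (0.889), Zfp346 (0.884), Gm11295 (0.871) and Pip4p1 (0.869), and its correlation with Wnt7a was 0.448. These are descriptions of libraries that share 4 group means, and carry no test.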

How the data were processed

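The members and gene lists were chosen with earlier results of these data known. RNA above an integrity number of 7.0 went into stranded mRNA libraries, per the labels' protocols. Tools named in the submitters' processing notes are HISAT2 2.1.0, Trimmomatic, Bowtie2, StringTie 1.3.4b, and DESeq2, with build mm10 and no roles. The authors deposited whole-number read counts per gene and transcript with no normalization stated, and TPM values per library, per the file headers. Deposited FPKM values were not used. Columns marked M and P were read as Cre minus and Cre plus.

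Genes kept by filterByExpr (edgeR 4.0.16, R 4.3.3) were scaled with TMM factors and fitted with 1 mean per group over 12 libraries in a quasi-likelihood model (8 residual degrees of freedom, common biological coefficient of variation 0.194). The 7 contrasts were tested two-sided, and a call is an adjusted p (Benjamini-Hochberg, over 19163 genes) under 0.05. The standard error is the fold change over the square root of F. With 3 libraries against 3, an exact permutation test cannot go below 0.1. In simulated counts for genotype under ESD (18806 genes) 2-fold changes were recovered in 75% of 100 genes and 4-fold changes in 99%. The changes were put into both AGR cKO groups, in genes above a minimum mean count. Counts were drawn independently for each library, with no outlying library and no shift of cell types, so recovery in the real data can be lower. Smaller changes were not simulated. Within-group pairs differed by more than counting noise. Correlations used log2 CPM with a prior count of 2.

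The wider pathway was named by rule: every called gene, and per class the 2 genes with the smallest p over the contrasts. Alternatives were DESeq2 1.42.0, other scaling factors, other filters on low counts, a replicate block, only the groups compared, robust moderation, a threshold of 0.1, limma-trend (limma 3.58.1) on log2 TPM with 1 or 0.1 added, and each library left out.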

Additional observations from a re-analysis of the deposited data

Results flagged for a closer look

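Fzd10 moved in opposite directions under the same contrast. The log2 difference for ESD was -0.71 in Cre- (all 3 libraries below all 3 controls) and 0.45 in AGR cKO (all 3 above). Likewise the genotype difference was -0.44 in control and 0.73 under ESD, each without overlap between the 3 and 3 libraries. Over all genes tested, 11.1% were without overlap for ESD in Cre- and 16.6% for ESD in AGR cKO. For genotype it was 16.9% in control and 19.9% under ESD. The Fzd10 difference was not tested, because the gene was chosen for it, and both pairs of Fzd10 values come from the same 12 libraries.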

How the results depend on the processing

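Of the 8 tested members, the count called for genotype over both conditions (1) was 2 with DESeq2 (Axin2 and Fzd2) and 0 to 2 when single libraries were left out. For genotype under ESD (0) it was 1 at a threshold of 0.1 (Axin2), 2 with DESeq2 and 0 to 1 with a library left out. Of the 86 pathway genes, the count for genotype over both conditions (1) was 2 with a filter of 1 CPM, with the replicate block, with robust moderation and with limma-trend on TPM with 1 added, 5 at a threshold of 0.1, 7 with DESeq2 and 0 to 4 with a library left out. For genotype under ESD (1) it was 0 with no filter, with the replicate block and with only the groups compared, 3 at a threshold of 0.1, 4 with DESeq2 and 0 to 2 with a library left out. For genotype in control (0) it was 1 with only the groups compared and with DESeq2 (Lgr6), and for ESD over both genotypes (0) it was 1 with DESeq2 (Fzd7). Whether the replicate numbers pair the libraries is not settled by these values. Of 18 same-numbered pairs 7 had a correlation of deviations over 0.1 (range -0.104 to 0.227). Pairs of unlike number ranged from -0.223 to 0.167. For 2 of 12 libraries the own number correlated best in each of the other groups. The main fit did not pair the libraries. The causes were not tested.

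Signs turned only for small values. Axin2 for ESD in Cre- (0.02) was -0.02 in both limma-trend fits, and Fzd1 for ESD in AGR cKO was 0.00 with no filter and with the replicate block, -0.01 with a filter of 1 CPM and with only the groups compared, and -0.03 in both limma-trend fits. With single libraries left out, ESD in Cre- ranged from -0.12 to 0.00 for Wnt7b, -0.26 to 0.18 for Wnt5a, -0.44 to 0.17 for Fzd2 and -0.02 to 0.05 for Axin2, and ESD in AGR cKO from -0.30 to 0.11 for Wnt5a, -0.10 to 0.08 for Fzd1 and -0.04 to 0.24 for Lef1. Genotype in control ranged from -0.12 to 0.32 for Wnt5a, -0.04 to 0.16 for Fzd9 and -0.06 to 0.10 for Tle4, and genotype under ESD from -0.16 to 0.26 for Wnt5a, -0.28 to 0.21 for Fzd1 and -0.20 to 0.04 for Lef1. Over both conditions Wnt5a ranged from -0.07 to 0.18 and Lrp6 from -0.11 to 0.00.

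The calls of all genes moved too: for genotype over both conditions from 668 to 1711 with DESeq2, and for genotype under ESD from 200 to 783 with DESeq2 and to 0 with only the groups compared. Over the alternatives other than leaving out a library, genotype in control had 2 to 265 calls. ESD over both genotypes had 0 to 32. Every member had at least 626 counts in every library, so depth limits these values less than the spread between 3 libraries a group.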
